A study of Bos taurus with 34 samples.

Results

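The genes described here are 63 bovine genes of 6 enzyme families, out of 14161 genes in the authors' deposited comparison of liver from SLICK and FREE cattle. They were chosen by symbol alone. Every gene whose symbol in that table starts with HSD (hydroxysteroid dehydrogenases, 17 genes), ADH (alcohol dehydrogenases, 6), ALDH (aldehyde dehydrogenases, 16), AKR (aldo-keto reductases, 8), DHRS (short-chain dehydrogenases/reductases, 10) or FMO (flavin-containing monooxygenases, 6) was taken. The 63 genes carry 62 symbols, because ADH6 stands for a pair of genes. One gene goes against the family name: FMOD is fibromodulin, a collagen-binding proteoglycan and no enzyme, and it was kept because the rule takes it. In the annotation of the TruSeq counts, 68 genes have a name with one of these starts, and 6 of them (ADH7, ALDH1B1, ALDH3A1, DHRS7C, HSD11B2 and HSD3B7) have no row in the comparison and are not analysed here.

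All animals are Senepol cattle, per the labels. By its name, the comparison set SLICK against FREE liver of the TruSeq libraries. For these libraries the labels list 10 SLICK daughters of the bulls Blanco (5) and Lone Ranger (5). The SLICK daughters inherited 1 copy of the SLICK allele of the prolactin receptor gene. The labels also list 8 FREE daughters (7 of Lone Ranger, 1 of Blanco), which inherited 0 copies. Whether exactly these 18 animals entered the comparison could not be checked. Both groups were sequenced from TruSeq mRNA libraries. The labels give no age, treatment or time of sampling. Sire and genotype overlap in part, since 7 of the 8 FREE daughters share a sire with only 5 of the 10 SLICK daughters, and no source used here says whether sire was a term of the authors' model. A further 16 SMARTer samples with 1 or 2 copies (5 S1, 11 S2) were not analysed here. The library columns of the tables are named by animal numbers that match no sample label, so no value per animal is given. The error of each value comes from the authors' F statistic, which implies a standard error and, with 18.7 degrees of freedom, an approximate 95% interval. A positive log2 fold change is read from the name of the table as higher in SLICK. Liver was sequenced in bulk, where fewer cells of a type and less RNA per cell cannot be told apart.

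These enzymes move hydrogen, or in the case of the FMO enzymes an oxygen atom, on small molecules. Alcohol dehydrogenases turn alcohols, retinol among them, into aldehydes, and aldehyde dehydrogenases turn aldehydes into acids, so the families work in series. Hydroxysteroid dehydrogenases, several DHRS enzymes and the aldo-keto reductases switch steroids, retinoids and carbonyl compounds between hydroxyl and keto forms, which activates or silences hormones. Hepatocytes hold most of them at high levels, where they serve detoxification, bile acid synthesis, fatty acid oxidation and the breakdown of amino acids.

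Most members had positive values in SLICK liver, by modest amounts. Of the 63 genes, 55 had a positive and 8 a negative value (log2 fold change, SLICK over FREE) in the authors' deposited table, with a median of 0.30 (lowest -1.02, highest 0.75), against a median of -0.01 over all 14161 genes. After adjustment over all genes, 1 member passed at 0.05 (DHRS7, which rose) and 0 fell. The background of that call is 0.501% of all genes in either direction, 0.0918% for genes that rose and 0.410% for genes that fell. At an adjusted p under 0.10 there were 3 members (DHRS7, FMO4 and ALDH9A1, each with a positive value) against 2.77% of all genes. An unadjusted p under 0.05 was found for 33 members (52.4%), of which 29 had positive and 4 negative values. Over all genes that share was 16.0%, made up of 7.22% positive and 8.79% negative. These counts describe the members, and no test of the families as lists was made.

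The 6 families differed in their counts, although each has few genes. Over all genes, 16.0% had an unadjusted p under 0.05, and 37.1% of those that averaged 9 log2 CPM or more. The ADH genes had the highest share with an unadjusted p under 0.05 (4 of 6, 66.7%), followed by AKR (5 of 8, 62.5%), ALDH (9 of 16, 56.2%), DHRS (5 of 10, 50.0%), HSD (8 of 17, 47.1%) and FMO (2 of 6, 33.3%, or 2 of 5 without FMOD). Median log2 fold changes followed another order. They were 0.46 for AKR, 0.38 for ADH, 0.31 for HSD, 0.24 for ALDH, 0.20 for DHRS and 0.16 for FMO (0.18 without FMOD). The order of the last 3 was not stable: by the mean they were 0.19 for FMO, 0.16 for ALDH and 0.12 for DHRS, and without members under 0 log2 CPM the DHRS median was 0.26. The families overlapped: values ran from -0.50 to 0.75 in AKR, 0.05 to 0.52 in ADH, -0.20 to 0.61 in HSD, -0.49 to 0.45 in ALDH, -1.02 to 0.64 in DHRS and -0.16 to 0.54 in FMO. The difference between families was not tested. Negative values with an unadjusted p under 0.05 were found for 4 of the 63 members, against 8.79% of all genes. They belonged to ALDH (ALDH18A1 and ALDH3B1), AKR (AKR1B1) and DHRS (DHRS9). None of these 4 passed the adjusted threshold.

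**Figure D1:**
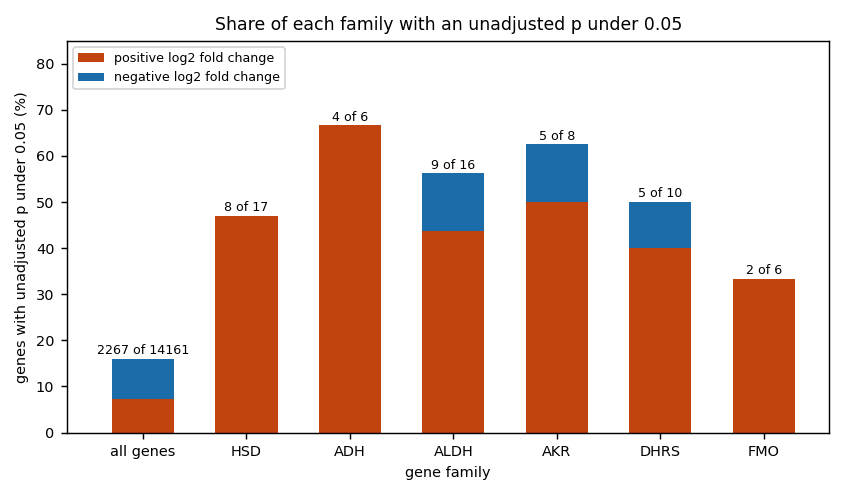
Bars give the percentage of genes with an unadjusted p under 0.05 in the authors' deposited table, for all genes and for each family, with positive (orange) and negative (blue) log2 fold changes stacked and the count above each bar. All 6 families stand above the 16.0% of all genes, and among the families blue segments appear in ALDH, AKR and DHRS.

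DHRS7, a short-chain dehydrogenase of the endoplasmic reticulum that acts on steroids and retinoids, was the member that passed. In the authors' deposited table it rose by 0.64 on the log2 scale (1.56-fold, interval 1.28 to 1.90), with p = 0.000133 and an adjusted p of 0.0486. It ranked 38 of 14161 by p, close under the threshold. DHRS7 lies on chromosome 10 of ARS-UCD1.2 from 72362347 to 72385747 on the - strand (ENSBTAG00000020729) and was the most abundant gene of its family per length, at 9.08 log2 CPM per kb. Its span overlaps PCNX4 on the other strand by 12.2 kb. PCNX4 had 0.11 (p = 0.365) on the log2 scale in the authors' deposited table, at an average of 2.32 log2 CPM. The overlap is one of gene spans, and the exons of the pair were not compared. No source used here says whether counting of the TruSeq libraries used strand, and reads shared by the pair were not tested.

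Of the other DHRS genes, 3 had a positive and 1 a negative value with an unadjusted p under 0.05. Over all genes, 7.22% were positive and 8.79% negative at that p. DHRS4, a peroxisomal reductase of retinal and other carbonyls, had a log2 fold change of 0.42 (interval 0.16 to 0.69, p = 0.00344, adjusted p = 0.109) in the authors' deposited table. DHRS1 stood at 0.37 (p = 0.00860) and DHRS11, a carbonyl and steroid reductase, at 0.26 (p = 0.0139), both from the authors' deposited table. By contrast DHRS3, which reduces retinal back to retinol, was at 0.02 with an interval of -0.17 to 0.21 from the authors' deposited table, although it was the third gene of the family by level. DHRS7B, which takes part in ether lipid synthesis, was at 0.04 (interval -0.14 to 0.21) there. DHRS12 (0.29), DHRSX (0.15) and DHRS13 (0.08) had p-values from 0.103 to 0.54 in the authors' deposited table. DHRS9, a retinol and steroid dehydrogenase, had the most negative value of all members, -1.02 (interval -1.83 to -0.20, p = 0.0175, adjusted p = 0.204) in the authors' deposited table. It was also the least abundant member, at -2.50 log2 CPM per kb.

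Alcohol dehydrogenases carry out the first step of ethanol and retinol oxidation. ADH1C, the most abundant of them per length (9.57 log2 CPM per kb), had a log2 fold change of 0.41, per the authors' deposited table (interval 0.13 to 0.69, p = 0.00585, adjusted p = 0.129). The abundant ADH6 gene (ENSBTAG00000006991) was at 0.34 (p = 0.0119) and ADH4 at 0.39 (p = 0.0312) in the authors' deposited table. The other ADH6 gene (ENSBTAG00000006986) had a similar log2 fold change, 0.38, at a far lower level (0.37 against 9.11 log2 CPM per kb), and its interval held 0 (-0.08 to 0.85). ADH5, which handles formaldehyde and S-nitrosoglutathione in most tissues, was the exception at 0.05 in the authors' deposited table, with a narrow interval of -0.10 to 0.20. ADHFE1, a mitochondrial transhydrogenase of hydroxy acids that is related to iron-dependent alcohol dehydrogenases, had the highest value of the family, 0.52 (interval 0.15 to 0.88, p = 0.00761, adjusted p = 0.145) in the authors' deposited table.

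The 5 ADH genes of chromosome 6 form a cluster of 263 kb in the order ADH1C, ADH6, ADH6, ADH4 and ADH5, all on the + strand, from 25280923 to 25543695. No other gene with a row in the comparison lies between them. ADH4 overlaps an annotated gene without a row by 1.35 kb on the same strand, and reads shared with it were not tested. The first 4 genes of the row had log2 fold changes from 0.34 to 0.41 in the authors' deposited table, and ADH5 at the end had 0.05. Whether ADH5 differs from its neighbours could not be tested without values per animal. The class I, II and related ADH genes are close in sequence, and reads shared between copies, which could blur single values, were not tested.

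Aldehyde dehydrogenases divide by substrate. ALDH2, the mitochondrial enzyme that clears acetaldehyde, was among the most abundant members (9.52 log2 CPM per kb) and had a log2 fold change of 0.36, per the authors' deposited table (interval 0.12 to 0.60, p = 0.00479, adjusted p = 0.118). ALDH9A1, which oxidises an intermediate of carnitine synthesis, had 0.45 (interval 0.19 to 0.70, p = 0.00196, adjusted p = 0.0930) and the smallest p of the family in the authors' deposited table. The enzymes of amino acid breakdown stood on the same side. ALDH4A1 of proline breakdown was at 0.36 (p = 0.0155), ALDH6A1 of valine breakdown at 0.37 (p = 0.0211) and ALDH8A1 of tryptophan breakdown at 0.24 (p = 0.0214) in the authors' deposited table. ALDH5A1, which ends the breakdown of GABA, was at 0.30 (p = 0.0398) and ALDH7A1 of lysine breakdown at 0.09 (p = 0.399) there. Of these 6 genes of amino acid and amine breakdown, 5 had an unadjusted p under 0.05, against the 16.0% of all genes, and 0 passed after adjustment. The 6 genes averaged 5.86 to 8.87 log2 CPM, and from 6 to 9 log2 CPM the share of all genes was 25.9%. ALDH18A1, which works in the reverse direction by making the precursor of proline, had a negative log2 fold change of -0.31 (interval -0.53 to -0.09, p = 0.00854, adjusted p = 0.154) in the authors' deposited table.

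None of the 5 retinal and folate enzymes of this family had an unadjusted p under 0.05, and ALDH1A1 and ALDH1L1 were the abundant ones. Over all genes that share was 16.0%, and 5 genes are too few to set a count of 0 apart from it. ALDH1A1, the retinal dehydrogenase with the highest level per length of the family (9.64 log2 CPM per kb), was at 0.40 with an interval of -0.08 to 0.87 in the authors' deposited table (p = 0.0956). The other retinal dehydrogenases, ALDH1A3 (0.11) and ALDH1A2 (-0.02), were far less abundant (3.05 and 0.41 log2 CPM per kb) and had p-values of 0.386 and 0.824 in the authors' deposited table. ALDH1L1, a folate enzyme of the cytosol, was at 0.23 (p = 0.0725) there. Its mitochondrial counterpart ALDH1L2 was at 0.21 with a wide interval of -0.66 to 1.08. The fatty aldehyde enzymes pointed in opposite directions: ALDH3A2 of the endoplasmic reticulum had 0.24 (p = 0.0377) and ALDH3B1 had -0.49 (interval -0.88 to -0.10, p = 0.0174, adjusted p = 0.204) in the authors' deposited table. ALDH16A1 was at 0.06 (p = 0.557) there.

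Hydroxysteroid dehydrogenases carry a steroid name, yet several act mainly on fatty acids, and these held 4 of the 5 smallest p-values of the family. HSD17B10, a mitochondrial enzyme of fatty acid and isoleucine oxidation and the most abundant of the family per length (9.33 log2 CPM per kb), was at 0.31 (interval 0.11 to 0.50, p = 0.00395, adjusted p = 0.112) in the authors' deposited table. HSD17B8 of mitochondrial fatty acid synthesis was at 0.31 (p = 0.00464, adjusted p = 0.117) there. HSD17B4, the bifunctional enzyme of peroxisomal beta-oxidation, had 0.49 (interval 0.15 to 0.82, p = 0.00650, adjusted p = 0.135) in the authors' deposited table. HSDL2, a peroxisomal and mitochondrial relative, had the highest value of the family, 0.61 (interval 0.17 to 1.05, p = 0.00953). HSD17B12, which elongates very long fatty acids, was at -0.20 with an interval of -0.60 to 0.20 in the authors' deposited table. Thus 4 of these 5 genes of acyl chain metabolism had a positive value with an unadjusted p under 0.05, against 7.22% of all genes, and 0 passed after adjustment. The 5 genes averaged 5.53 to 9.53 log2 CPM, and the share of all genes was larger at higher levels. It was 333 of 1705 genes from 6 to 9 log2 CPM and 84 of 232 at 9 or more. The role groups were drawn with earlier results of these data known.

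Among the enzymes that act on steroid hormones, HSD3B1, which commits steroids to the hormone pathway, had a log2 fold change of 0.57 (interval 0.20 to 0.94, p = 0.00480, adjusted p = 0.118) in the authors' deposited table. HSD17B6, which oxidises androgen metabolites and retinol, was at 0.39 (p = 0.00959) and the second most abundant of the family per length. HSD17B2, which inactivates estradiol and testosterone, was at 0.42 (p = 0.0242) in the authors' deposited table. HSD17B3 was at 0.42 and HSD17B1 at 0.05 there. Both were scarce, at -0.67 and -1.25 log2 CPM per kb, with intervals of -0.10 to 0.93 and -0.40 to 0.51. HSD11B1, which regenerates active glucocorticoid in liver, was abundant (8.58 log2 CPM per kb) and had 0.29 with an interval of -0.04 to 0.62 (p = 0.0813) in the authors' deposited table. HSD11B1L was at 0.22 (p = 0.0587) there. HSD17B7 of cholesterol synthesis (0.12), HSD17B14 (0.02) and HSDL1 (-0.04) had p-values from 0.42 to 0.912 in the authors' deposited table.

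HSD17B11 and HSD17B13, a pair of lipid droplet enzymes, lie side by side on the - strand of chromosome 6, 15.2 kb apart. Their log2 fold changes in the authors' deposited table were alike, 0.32 for HSD17B11 and 0.39 for HSD17B13, but their intervals were not: 0.06 to 0.58 (p = 0.0197) against -0.17 to 0.94 (p = 0.159). Both were abundant, at 8.46 and 7.34 log2 CPM per kb. The implied standard error of HSD17B13, 0.26, exceeded that of 97.7% of the 257 genes within 0.5 log2 CPM of its level.

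**Figure D2:**
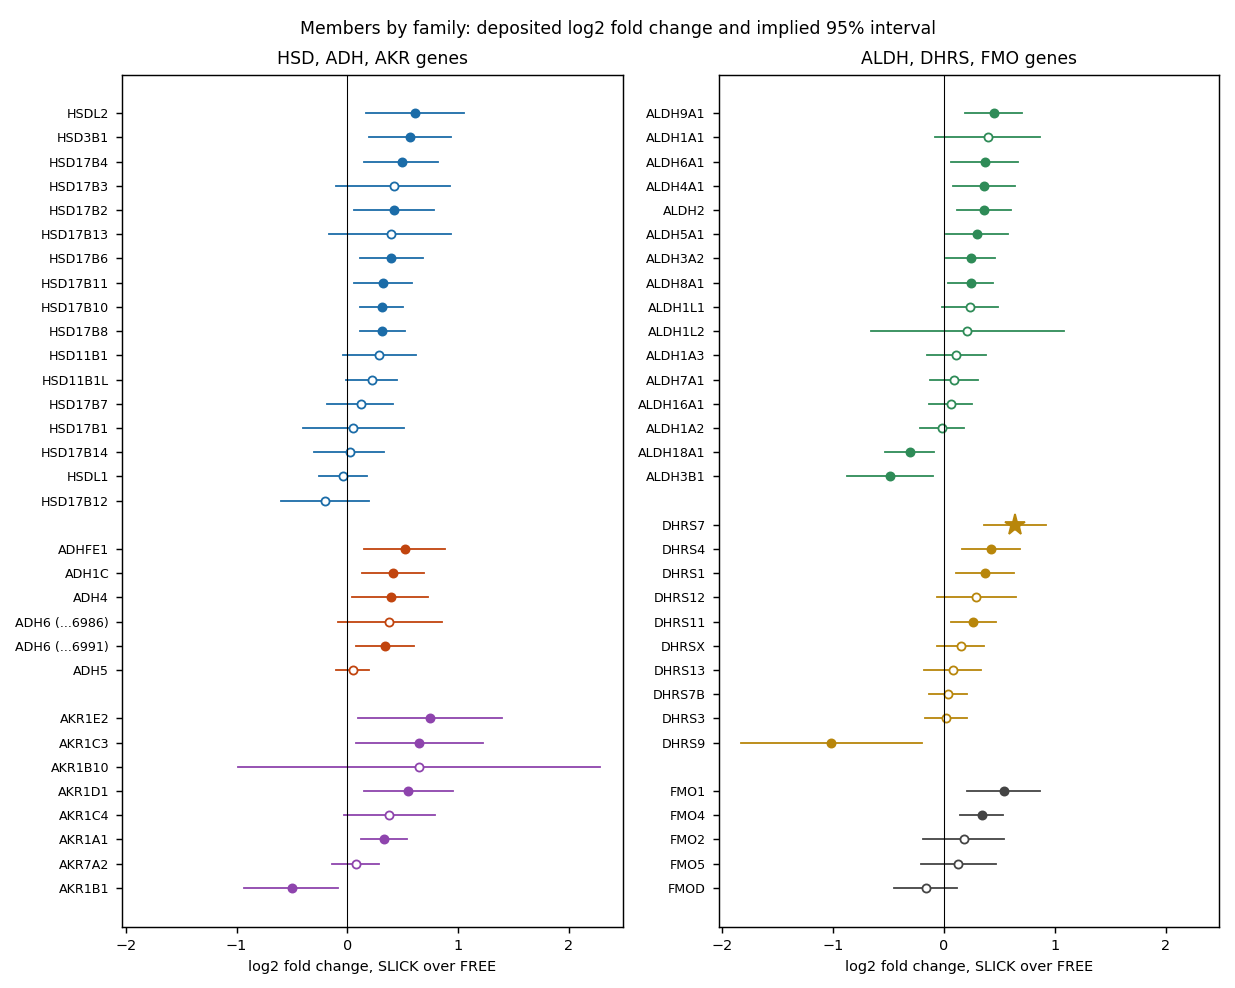
Points are the log2 fold changes of 62 members (SLICK over FREE) from the authors' deposited table, and lines are the approximate 95% intervals implied by the F statistic. Filled points have an unadjusted p under 0.05 and the star marks DHRS7, the 1 member past an adjusted p of 0.05. Most points lie right of 0, and DHRS9, AKR1B1, ALDH3B1 and ALDH18A1 are the filled points left of it.

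Aldo-keto reductases had the highest family median. AKR1A1, which reduces many aldehydes and glucuronate, had the smallest p of the family, 0.00348, with a log2 fold change of 0.33, per the authors' deposited table (interval 0.12 to 0.54, adjusted p = 0.110). AKR1D1, which reduces the steroid ring in bile acid synthesis and in the clearance of steroid hormones, was at 0.55 (interval 0.15 to 0.95, p = 0.00903, adjusted p = 0.156) in the authors' deposited table. AKR1C3, a ketosteroid reductase, was the most abundant of all 63 members per length, at 10.07 log2 CPM per kb, and had 0.65 with an interval of 0.08 to 1.22 (p = 0.0284) there. AKR1C4 was at 0.38 (interval -0.03 to 0.79, p = 0.0707) in the authors' deposited table. AKR1E2, a reductase of anhydrofructose, had the highest value of all members, 0.75 (interval 0.10 to 1.40, p = 0.0258, adjusted p = 0.241), at a low level of 0.99 log2 CPM per kb. AKR7A2, which reduces succinic semialdehyde, was at 0.08 (p = 0.469) in the authors' deposited table.

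The AKR1B pair on chromosome 4 showed opposite signs. AKR1B1, aldose reductase, which turns glucose into sorbitol, had a log2 fold change of -0.50 (interval -0.93 to -0.08, p = 0.0217, adjusted p = 0.223) in the authors' deposited table. AKR1B10, 85.3 kb away, had 0.65 with an interval of -0.99 to 2.28, the widest of all members, at an average of 0.38 log2 CPM. The sign of AKR1B10 is thus not fixed by these data.

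AKR1C3 and AKR1C4 lie 29.6 kb apart on chromosome 13, from 43578475 to 43626832, and AKR1E2 lies 244 kb further on. In the stretch of 509 kb around them, 7 genes with LOC symbols have rows in the comparison, and the rule does not take these. The 4 before AKR1C3 had log2 fold changes of 0.30 (LOC785762) to 1.34 (1 of the genes named LOC782061) in the authors' deposited table. The 3 between AKR1C4 and AKR1E2 were at -0.39 (LOC527068), -0.37 (LOC782884) and -0.04 (LOC782922), with p-values from 0.106 to 0.908 there. The signs thus differed along the row, and 0 of these 7 genes passed after adjustment. Genes of this region may share reads, which was not tested.

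Flavin-containing monooxygenases add oxygen to nitrogen and sulfur atoms of drugs and other small molecules. FMO1, the most abundant of them in this liver (8.83 log2 CPM per kb), had a log2 fold change of 0.54, per the authors' deposited table (interval 0.21 to 0.87, p = 0.00289, adjusted p = 0.103). FMO4 was at 0.34 with the smaller p of 0.00188 and an adjusted p of 0.0919 there. Its implied standard error, which is taken from the same F, was 0.09, above that of 60% of the 1791 genes near its level. FMO5 was at 0.13 (p = 0.436) and the scarce FMO2 at 0.18 (p = 0.320) in the authors' deposited table. FMOD had -0.16 (p = 0.245), the 1 negative value with this symbol start. FMO2, FMO1 and FMO4 follow each other on the + strand of chromosome 16, and of these FMO1 and FMO4 had intervals that excluded 0. FMO5 lies apart on chromosome 3.

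**Figure D3:**
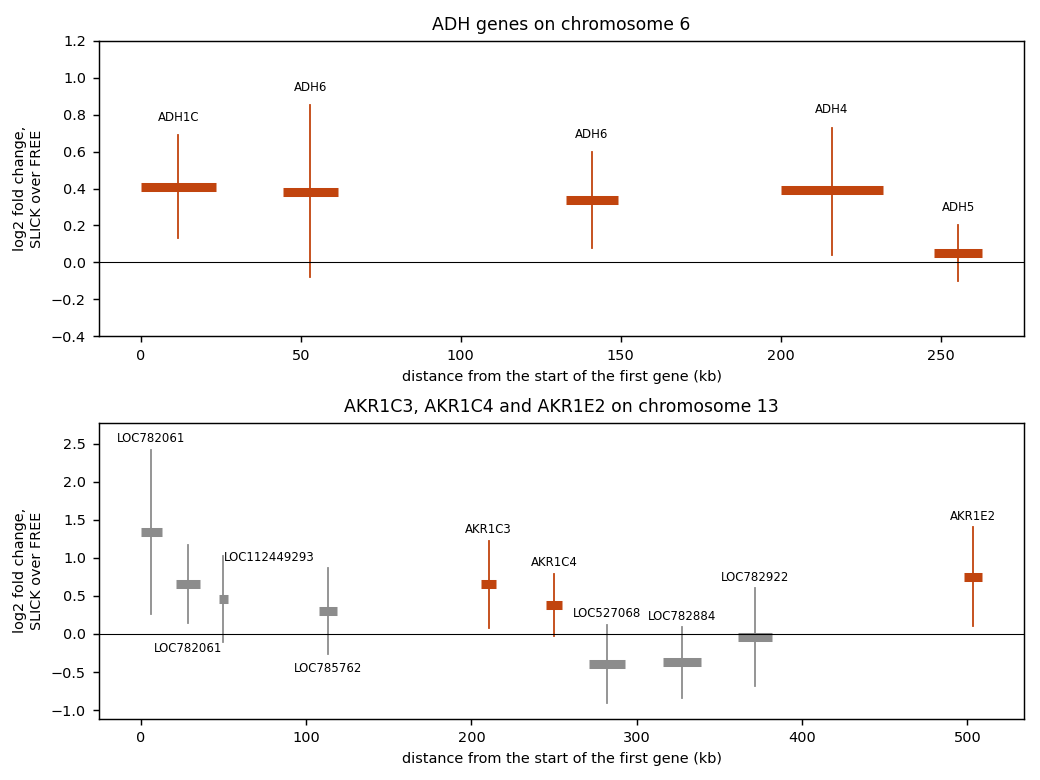
Horizontal bars are genes at their distance in kb from the start of the first gene, set at their log2 fold change (SLICK over FREE) from the authors' deposited table, with vertical lines for the approximate 95% interval. Members are orange and other genes grey. ADH5 lies near 0 at the end of the ADH row, and the 3 genes between AKR1C4 and AKR1E2 lie at or below 0.

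Levels spanned a wide range. Per kb of exon, the members ran from -2.50 (DHRS9) to 10.07 (AKR1C3) log2 CPM, with a median of 5.60 against 2.21 over all genes. FMO1 was the highest of its family. In the other 5 families the 3 highest were HSD17B10, HSD17B6 and HSD11B1, ADH1C, ADH4 and ADH6, ALDH1A1, ALDH2 and ALDH1L1, AKR1C3, AKR1C4 and AKR1D1, and DHRS7, DHRS4 and DHRS3. These levels are the authors' averages over all libraries, with no spread between animals, so close neighbours in the order cannot be told apart. Abundant genes of this liver tended to have positive values whether or not they were members. Of the 232 genes that averaged 9 log2 CPM or more, 207 had a positive value in the authors' deposited table and 37.1% an unadjusted p under 0.05, with a median of 0.21. The 14 members at that level all had positive values, 10 of them with an unadjusted p under 0.05, and a median of 0.38.

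At lower levels the medians of all genes were nearer 0 or negative. From 6 to 9 log2 CPM the medians were 0.24 for 21 members and 0.06 for 1705 genes, with 47.6% and 25.9% under an unadjusted p of 0.05. From 3 to 6 log2 CPM they were 0.28 for 16 members and -0.00 for 6505 genes, with 56.2% and 14.8%. From 0 to 3 log2 CPM the medians were 0.20 for 10 members and -0.04 for 3689 genes, with 3 of the 10 members and 14.3% of the genes under that p. The 2 members that averaged under 0, DHRS9 and HSD17B1, had a median of -0.48 against -0.09 for 2030 genes. The rank correlation of level per kb with the log2 fold change was 0.40 over the 63 members and 0.22 over the 14161 genes. It is a description across genes that share the same libraries and the same comparison.

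**Figure D4:**
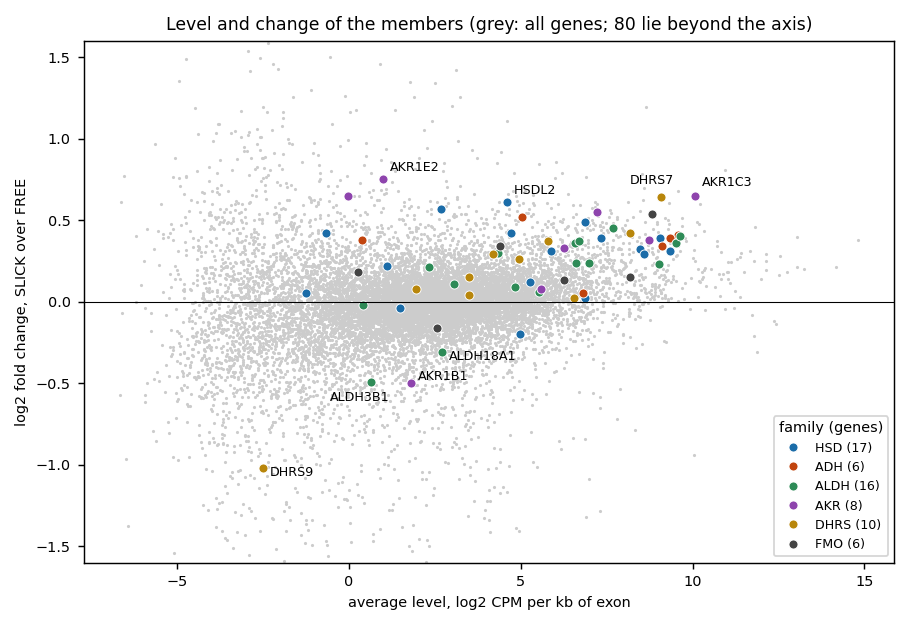
Each coloured point is a member, with its average level per kb of exon on the horizontal axis and its log2 fold change (SLICK over FREE) on the vertical axis, both from the authors' deposited table, and grey points are all genes (80 lie beyond the vertical axis). Members of high level lie above 0, and the negative values with labels (ALDH18A1, AKR1B1, ALDH3B1 and DHRS9) belong to members of lower level.

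Enzymes and carriers that share pathways with the members, none of them a member, are listed by pathway, and some genes stand in more than 1 list. The counts at an unadjusted p under 0.05 stand against 16.0% of all genes, and against 25.9% of genes from 6 to 9 log2 CPM and 37.1% of those at 9 or more. Of 28 other genes of ethanol and aldehyde disposal, 13 had a positive and 2 a negative value with an unadjusted p under 0.05 (53.6%), with a median of 0.25. ACSS1, a mitochondrial acetyl-CoA synthetase, fell by 0.37 on the log2 scale (adjusted p = 0.0486), the 1 call past that threshold in these lists, and HAO2 was at 0.61 (p = 0.00106), both per the authors' deposited table. Of 23 other genes of steroid and bile acid synthesis, 9 were positive and 3 negative at that p (52.2%), with a median of 0.20, led by the steroid sulfatase STS (0.98, p = 0.000514) and the electron donor POR (0.37, p = 0.00681) in the authors' deposited table. Of 21 other genes of retinoid metabolism, 4 were positive and 1 negative at that p (23.8%, median 0.12), with BCO2 at 0.63 (p = 0.00369) and CRABP1 at -1.48 (p = 0.01) there. Other short-chain dehydrogenases and medium-chain reductases had 10 positive and 1 negative of 37 at that p (29.7%, median 0.13), led by SDR39U1 (0.38, p = 0.000267) and CRYZ (0.40, p = 0.000607) in the authors' deposited table. Other oxygenases and xenobiotic enzymes had 10 positive and 0 negative of 21 at that p (47.6%, median 0.21), with AS3MT at 0.21 (p = 0.00222) there.

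Markers of the cell types of liver were read beside these values. Their counts at an unadjusted p under 0.05 also stand against 16.0% of all genes. That share was 25.9% for genes from 6 to 9 log2 CPM and 37.1% for those at 9 or more. Hepatocyte markers had a median of 0.28 over 10 genes, 8 with positive and 2 with negative values. An unadjusted p under 0.05 was found for 4 of them (40.0%), all positive. Of the 10, 9 averaged 9 log2 CPM or more, a level at which all genes had a median of 0.21. The hepatocyte markers lay at 7.07 to 14.80 log2 CPM per kb, so the labelled tissue showed its defining markers. Cholangiocyte markers had negative values in 8 of 8 genes (median -0.75, 6 with an unadjusted p under 0.05), at -1.59 to 3.63 log2 CPM per kb. Medians were 0.13 over 8 Kupffer cell or macrophage markers, -0.16 over 8 stellate cell or fibroblast markers, 0.12 over 7 endothelial markers, 0.00 over 5 T or NK cell markers and 0.09 over 4 B or plasma cell markers. In these 7 lists 0 genes passed after adjustment. The adipocyte list had 2 genes (median 0.07), the erythroid list 2 (median -0.26) and the skeletal muscle list 0 with a row. Of 18 pericentral hepatocyte genes, 12 had positive and 6 negative values (median 0.15, from -0.33 to 0.81). At an unadjusted p under 0.05, 4 were positive and 1 negative (27.8%). The smallest p-values were those of CYP2E1 (0.81, p = 0.00121) and CYP1A2 (0.60, p = 0.00603) in the authors' deposited table. Of 16 periportal genes, 10 had positive and 6 negative values (median 0.31, from -0.73 to 0.66). At that p, 6 were positive and 0 negative (37.5%), led by GLDC (0.66, p = 0.000274) and ASS1 (0.60, p = 0.000391) there. The part of cell composition in the members' values was not tested, since levels per group were not used.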

How the data were processed

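RNA of 18 liver samples went into TruSeq and of 16 into SMARTer libraries, per the labels' protocols. Tools named in the submitters' processing notes are edgeR, Subread, featureCounts and HISAT2 2.1.0, and the build is ARS-UCD1.2; the notes give no roles. For SMARTer, the header records featureCounts 1.6.2, Ensembl release 100, strand-aware counting and mapping quality of at least 10. Per the file headers, the comparison deposited by the authors (slick against free) holds for each gene its average level and its change as log2 values, the F statistic (used here as a score), and the p-value before and after adjustment. No p-value was computed here except a check of the adjustment. No source used here gives the terms of the authors' model.

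The 70 columns of values per library in the 4 tables carry animal numbers that match no sample label. None was used, so depth per sample and the planned quasi-likelihood fits of SLICK against FREE and of S2 against S1 are not reported, and the deposited test was used instead. Its p-values set the difference between groups against the residual spread between samples, under a model whose terms are not known. Nothing says how animals were kept or grouped, and sire and genotype overlap in part. From 14246 rows, 85 repeats of a gene under a further symbol were dropped, which left 14161 genes. The standard error was the absolute log2 fold change divided by the square root of F. The F and p of 500 genes implied 18.7 denominator degrees of freedom for the 95% intervals. Levels per kb subtract log2 of the summed exon length, and coordinates are those of the deposited annotation (27607 genes). Of the 62 member symbols, 62 were found in RefSeq; unmatched list symbols were looked up among RefSeq synonyms. The adjustment and the intervals were tested on simulated data. There F was built as the squared ratio of change to standard error, so whether the deposited F has that form was not checked.

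The members, the role groups and the gene lists were chosen with earlier results of these data known. Any member could be named, but 1 member and 1 gene of a further list are not reported here by name and stand in the counts only. The rule gave full values for members past an adjusted p of 0.05 and the 4 members of each family with the smallest p, with the highest levels, the extremes, members of known central role in liver, and the 2 genes of each further list with the smallest p. The genes of the AKR1C region, PCNX4 and those between DHRS1 and DHRS4 were named after their values were seen. Tools were Python 3.11.15, numpy 2.4.6, pandas 2.3.3, scipy 1.17.1 and matplotlib 3.10.9.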

Additional observations from a re-analysis of the deposited data

How the results depend on the processing

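The count of members past the adjusted threshold was 1 with the adjustment recomputed over the 14161 distinct genes and with every row of the table. It was also 1 with members of at least 0 log2 CPM (61 genes) and with symbols that have a digit or L after the family start (60 genes). These restrictions keep the deposited adjusted p and can only drop members. DHRS7 meets both, so their count was fixed in advance. At a threshold of 0.10 the count was 3, by the construction of that threshold. The count with an unadjusted p under 0.05 was 33, and it was 32 under either restriction of members and 29 of 50 among members that overlap no other annotated gene, an alternative chosen after seeing the data. It was 18 at a threshold of 0.01, again by construction. All 30 recomputed family medians were positive, from 0.12 to 0.47. Each family had 5 alternatives, among them the mean and the value less the median of all genes. Each median moved by less than the median standard error of its family's genes, which does not measure the spread of a family median. Some alternatives could not move a median, since they left every member in, as with the 8 AKR genes. Taking off the median of all genes moved every family alike. AKR, ADH and HSD kept the first places in that order under each alternative, while the order of ALDH, DHRS and FMO changed with the mean and with each restriction of members. The rank correlation of level with change was 0.35 without the length term. No paired analysis was possible because the library columns carry no replicate number or group. For the same reason leaving out single animals, other normalizations, filters on counts and Lone Ranger daughters alone were not run. Whether 1 animal or the sire carries a value cannot be told from the deposited table.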

Other observations

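Implied standard errors of the members were mostly large for their level. For 48 of the 63 members, the standard error implied by the authors' F statistic lay above the median of all genes within 0.5 log2 CPM of the member's level. ALDH1L2, the mitochondrial folate enzyme, was the extreme: its implied standard error of 0.42 exceeded that of 99.7% of the 2296 genes near its level, whose median was 0.09. The span of ALDH1L2 overlaps another gene on the other strand by 23.6 kb. AKR1B10 (0.78, above 98.8%), HSD17B13 (0.26, above 97.7%) and HSDL2 (0.21, above 95.4%) followed. HSD17B10, by contrast, had a standard error of 0.09, above 16.8% of the genes near its level.

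DHRS1 and DHRS4 frame a stretch of chromosome 10 of 229 kb with 19 other genes in the comparison. The pair had positive log2 fold changes in the authors' deposited table (0.37 and 0.42). Genes between them included REC8, which fell by 4.39 log2 units (adjusted p = 0.0486) there. CARMIL3, the nearest of the 19 to DHRS4, was at -2.19 (adjusted p = 0.0599) in the authors' deposited table. IRF9, a subunit of the interferon-activated factor, was at -0.46 (p = 0.0108), and the proteasome activator genes PSME1 and PSME2 were at -0.24 and -0.18 there. Of the 19 genes, 8 had positive and 11 negative values, against 6822 and 7339 over all genes. An unadjusted p under 0.05 was found for 3 positive and 6 negative ones (47.4%, against 16.0% of all genes). The 3 positive ones were DCAF11 (0.27), FITM1 (0.25) and RABGGTA (0.16) in the authors' deposited table.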
